A study of Rattus norvegicus with 6 samples.

Results

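DNase I hotspots that were missing after lipopolysaccharide (LPS) and present in all other libraries were examined in cultured rat microglia. These LPS-missing regions were chosen by hotspot calls. A counted region qualified when it overlapped a hotspot by at least 1 bp in all 4 untreated and glioma-conditioned medium (GCM) libraries and overlapped none in either LPS library. The rule found 1013 of the 129499 counted regions, which is 1.37% of the 73921 regions with hotspots in the 4 untreated and GCM libraries. Because the hotspot calls and the counts come from the same reads, the LPS values of these regions against the untreated or the GCM values are a description and carry no test.

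The study measured open chromatin in microglia from the cerebral cortex of Wistar rats of 1 day of age, with 2 independent cultures per group and 10 to 15 pups pooled for each culture. LPS cultures received 100 ng/mL LPS from Salmonella enteritidis for 6 h. GCM cultures received, for 6 h, medium taken after 24 h from cultures of C6, an established rat glioma line. Untreated cultures received neither agent. All groups shared 2 weeks of growth in mixed cortical culture with 10% serum, recovery by shaking and 48 h of rest, so the cells were cultured neonatal microglia and not cells of the adult brain. DNase I was applied to nuclei for 10 min at amounts from 0.2 to 3.2 U, of which 3 concentrations were taken on to sequencing. The files place no genes on the regions, so the microglial label was not checked against marker genes, and regions are named by their position in build rn5, with the first base counted as 1.

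DNase I cuts DNA where nucleosomes are displaced, and a hotspot is a stretch in which the cut ends are denser than the local background allows. Such stretches mark promoters, enhancers and insulators that are bound by regulatory proteins. Microglia are the macrophages of the brain, whose enhancers are held open by lineage factors such as PU.1. LPS acts on Toll-like receptor 4 and activates NF-kB, AP-1 and interferon regulatory factors, which open inflammatory enhancers, while other enhancers of the resting macrophage are known to lose accessibility. Conditioned medium of glioma cells is used as a model of the soluble signals that a tumour sends to microglia.

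Whole libraries held 80482493 and 102511096 reads with LPS, 60101604 and 120486897 with GCM, and 95402269 and 65206889 in untreated cultures. Counts in regions were between 7136940 and 12395467 per library. The shallowest library was untreated replicate 2 by counts in regions and GCM replicate 1 by whole-library reads. Whether depth bears on the missing calls was not tested. In counts summed per chromosome, replicates differed by more than counting error, with a chi-square per degree of freedom of 87.2 between LPS libraries, 15.0 between GCM libraries and 16.0 between untreated libraries. The LPS lists held 138554 and 152869 hotspots, the GCM lists 125497 and 136057, and the untreated lists 160868 and 107489.

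A missing hotspot call did not mean an absence of cut ends. Over the 1013 LPS-missing regions, the median level per library was 2.54 and 2.61 CPM with LPS, 3.81 and 4.18 CPM with GCM, and 3.85 and 4.34 CPM in untreated cultures. CPM are counts scaled to the library's total in the regions tested, multiplied by edgeR's TMM scaling factor. The medians of both LPS libraries were the lowest of the 6, and the GCM medians lay next to the untreated ones. Behind these values were median counts of 25 and 32 with LPS, 31 and 51 with GCM, and 43 and 31 in untreated libraries. The lowest count of any of these regions in an LPS library was 1, so none was empty.

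Per kb of sequence, the median cut density was 8.26 and 8.33 CPM with LPS, 12.3 and 13.2 with GCM, and 12.4 and 13.9 in untreated cultures. Outside the counted regions, the remaining reads of each library spread over the genome gave 2.54 and 2.56 CPM per kb with LPS, 2.21 and 3.17 with GCM, and 2.67 and 2.87 in untreated cultures. These outside levels were scaled to the total in all counted regions without the TMM factors, which ran from 0.986 (GCM replicate 1) to 1.01 (GCM replicate 2). The median LPS-missing region thus stood 3.26 and 3.25 times above that crude outside level with LPS, 5.59 and 4.16 times with GCM, and 4.66 and 4.85 times in untreated cultures. The working description of these sites as closed by LPS is stronger than the counts, which show lower and still raised accessibility. In bulk cultures, fewer cells with an open site and less cutting per cell cannot be told apart. The name LPS-missing is used here for the hotspot call alone.

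As a group the regions took up 0.270% and 0.272% of all counts in regions with LPS, 0.401% and 0.444% with GCM, and 0.416% and 0.454% in untreated libraries. The 95% Wilson intervals, which cover counting error only, ran from 0.267% to 0.275% across the LPS libraries and from 0.396% to 0.459% across the other libraries.

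**Figure D1:**
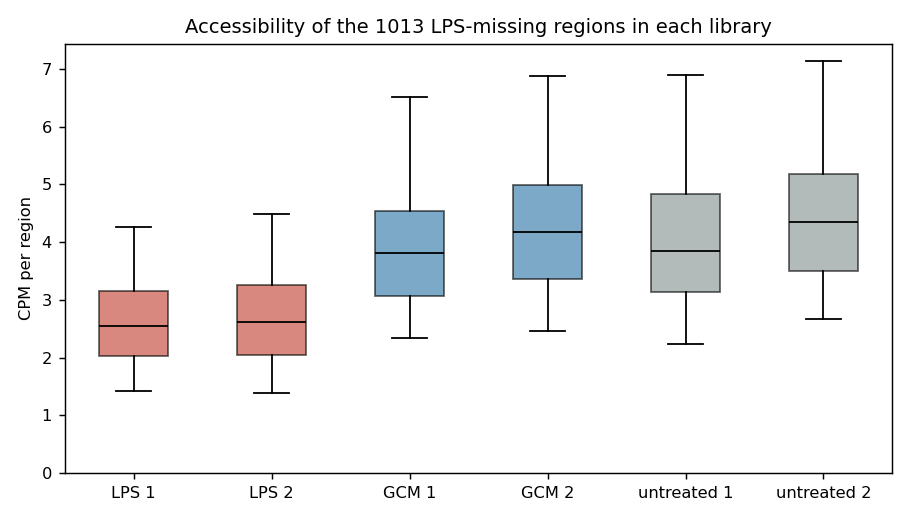
Level of the 1013 LPS-missing regions in each library, in CPM per region, with LPS, GCM and untreated libraries from left to right. Boxes span the middle 50% of regions with the median as a line, whiskers run to the 5th and 95th percentile, and the LPS medians of 2.54 and 2.61 lie below the other 4, which run from 3.81 to 4.34.

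LPS-missing regions were narrower and less densely cut than regions with hotspots in all 6 libraries, a trait they shared with other regions that lacked some hotspots. Their median width was 314 bp, with the middle 50% of regions between 265 and 366 bp and extremes of 35 and 951 bp, against 549 bp for regions with hotspots in all 6 libraries. In untreated libraries the 12.4 and 13.9 CPM per kb of the LPS-missing regions lay below the 16.5 and 16.5 of regions with hotspots in all 6 libraries and near the 13.5 and 13.6 of all counted regions. All counted regions had a median width of 370 bp, and regions that lacked a hotspot in LPS replicate 1 alone, in LPS replicate 2 alone or in both GCM libraries had 332, 330 and 321 bp. By the authors' score, the hotspots under the LPS-missing regions had a median percentile within their own lists of 34.8 and 41.3 with GCM and of 48.9 and 31.7 in untreated libraries. In the top 10% of those lists lay 5 and 1 of them with GCM and 7 and 0 in untreated libraries.

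LPS was compared with no treatment to see where inflammatory activation alters accessibility. Of the 1013 regions, 1011 passed the filter on low counts. Their median log2 change with LPS was -0.64, a level 1.56-fold lower than in untreated cultures, against -0.00069 over all 126284 regions tested. Among the LPS-missing regions 5% had changes below -1.12, the middle 50% lay between -0.82 and -0.47, and 5% lay above -0.27. The median SE of a single region's change, worked back from the edgeR test statistic, was 0.244. The change was negative in 1010 of 1011 regions.

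Called lower with LPS (adjusted p under 0.05, edgeR quasi-likelihood test, Benjamini-Hochberg over all regions) were 377 of the 1011 LPS-missing regions, or 37.3%, against 3.14% of all regions tested. None was called higher, against 6.71% of all regions, and none had an unadjusted p under 0.05 in that direction in edgeR or in DESeq2. A log2 change under -1 was found in 105 LPS-missing regions (10.4%) and in 0.603% of all regions. Both LPS libraries lay below all 4 others in 910 regions (90.0%), against 12.6% of all regions, and in the remaining 101 the libraries overlapped. Since the rule used this contrast, nothing is read from these shares.

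The number called depended on the spread assumed and on single libraries. Of the LPS-missing regions DESeq2 called 15 lower with LPS (1.48%, against 0.0531% of all regions), and scaling by whole-library totals in edgeR called 145 (14.4%, against 0.543%). It was 202 without LPS replicate 1, 165 without LPS replicate 2, 130 without untreated replicate 1 and 130 without untreated replicate 2, against 2.02%, 1.44%, 0.841% and 0.711% of all regions in the same order. In the authors' deposited table, 374 of the 1008 LPS-missing regions that it lists were lower with LPS at a false discovery rate under 0.05, which is 37.1%, against 3.33% of all regions in that table.

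Within this set the median LPS change hardly varied with level or width, while the share called did. The set was chosen by LPS hotspot calls on the same reads, which limits the LPS changes that can appear. No other regions were split this way, so the flat medians are a description. Ranked by mean GCM level into 4 groups of near-equal size, the regions had median log2 changes with LPS of -0.66, -0.62, -0.62 and -0.65 from the weakest to the strongest. The share called lower was 27.3%, 33.5%, 37.8% and 50.6% in the same order, and the median SE fell to 0.215 in the strongest group, against 0.281 in the weakest. Ranked by width, the medians were -0.65, -0.63, -0.64 and -0.64 from the narrowest to the widest, with 27.0%, 33.2%, 40.4% and 48.8% called. The SE thus moved with the share of calls, and the median change did not.

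With GCM, the LPS-missing regions stayed near the levels of untreated cultures. Their median log2 change for GCM over untreated was -0.03, with the middle 50% between -0.19 and 0.14 and extremes of -0.69 and 0.74, beside a median SE of 0.225. Over all regions the median was -0.0017. The rule does not set which of these groups is higher, but it asks for a hotspot in both, so a region that fell clearly with GCM could lose its GCM hotspot and leave the set. Values near 0 and few lower calls are thus partly fixed by the choice of regions.

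Of the 1011 regions tested, 2 passed as higher with GCM than untreated (0.198%, edgeR), against 1.34% of all regions, and none passed as lower, against 0.231%. At an unadjusted p under 0.05 there were 36 higher and 33 lower in edgeR, against 11655 and 7444 of all 126284 regions tested. After adjustment DESeq2 called 0 in either direction, but of all regions it called only 3 higher (0.00238%). The region at 223688994 to 223689594 on chromosome 4 had 4.06 and 3.59 CPM with LPS, 7.99 and 8.68 with GCM, and 5.10 and 5.19 in untreated cultures. Its GCM libraries lay above all 4 others, with a log2 change of GCM over untreated of 0.71 ± 0.181 (SE; n = 2 per group, adjusted p = 0.0332, edgeR). The region at 220588164 to 220588657 on chromosome 1 had 2.64 and 3.18 CPM with LPS, 7.37 and 8.36 with GCM, and 4.48 and 5.19 in untreated cultures. It was 0.74 ± 0.189 higher with GCM than untreated on the log2 scale (SE; adjusted p = 0.0334, edgeR), and here too the groups did not overlap.

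Both GCM calls were lost with DESeq2 (adjusted p = 1.00 for each), with whole-library totals, with the untreated libraries counted as 1 sample, without GCM replicate 2 and without either untreated library. The first was also lost without GCM replicate 1 (adjusted p = 0.0547, edgeR). Over all alternatives the adjusted p ran from 0.0166 to 1.00 for the first and from 0.0159 to 1.00 for the second. The number called higher was 7 without LPS replicate 1 (0.692%, against 1.69% of all regions), 7 without LPS replicate 2 (0.693%, against 1.76%) and 4 without GCM replicate 1 (0.396%, against 1.16%). It was 0 without GCM replicate 2, untreated replicate 1 or untreated replicate 2, against 0.0213%, 0.00948% and 0.0677% of all regions in that order.

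The 3 regions with the smallest p for a lower level with GCM did not pass. At 223156416 to 223156789 on chromosome 1 the levels were 3.55 and 3.75 CPM with LPS, 3.44 and 4.42 with GCM, and 6.27 and 6.59 in untreated cultures, so LPS and GCM libraries overlapped and both lay below untreated ones (GCM over untreated -0.67 ± 0.204, SE; adjusted p = 0.0795, edgeR). The others, at 104765418 to 104765800 on chromosome 10 and at 128905879 to 128906278 on chromosome 8, had log2 values of -0.57 and -0.62 for GCM over untreated (adjusted p = 0.0927 and 0.103, edgeR).

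Set directly against LPS, GCM levels of the LPS-missing regions were higher by a median log2 of 0.61, or 1.52-fold, with a range from -0.43 to 1.85. Called higher with GCM than with LPS were 351 regions (34.7%), against 3.75% of all regions, and none was called lower, against 4.84%. No region had an unadjusted p under 0.05 for a lower level with GCM than with LPS in edgeR or DESeq2. This contrast shares the LPS libraries with the one above, and the rule used it too. DESeq2 called 20 higher with GCM than with LPS (1.98%, against 0.0863% of all regions), and whole-library totals gave 156 (15.4%, against 0.761%). The number was 87 without GCM replicate 2 (8.61%, against 0.933%), 216 without LPS replicate 1 (21.4%, against 3.09%) and 145 without LPS replicate 2 (14.4%, against 1.35%).

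Replicate cultures differed within these regions by a median of 0.209 with LPS, 0.188 with GCM and 0.212 in untreated cultures, on the log2 scale and without sign, against 0.183, 0.201 and 0.189 over all regions. These differences are not scaled to counting error, which widens them at lower counts. Median counts with LPS were 25 and 32 in these regions, against 51 and 63 over all counted regions. Replicate 1 was lower than replicate 2 by a median log2 of 0.02 with LPS, 0.11 with GCM and 0.15 in untreated cultures. The shifts within GCM and within untreated cultures were larger in size than the median of -0.03 for GCM over untreated.

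The 10 LPS-missing regions with the highest mean level over the GCM and untreated libraries lay on 9 chromosomes and were 520 to 951 bp wide. In all 10 both LPS libraries lay below all 4 others. Their levels ran from 4.37 to 7.02 CPM with LPS, from 8.03 to 14.6 with GCM and from 8.13 to 12.2 in untreated cultures. They were 1.32-fold to 2.47-fold lower with LPS than untreated, and 8 of them were called lower.

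The highest of all, at 58196118 to 58197039 on chromosome 11, had 6.70 and 5.79 CPM with LPS, 12.5 and 14.1 with GCM, and 9.04 and 10.1 in untreated cultures. The 3 groups did not overlap, with LPS lowest and GCM highest, though GCM over untreated did not pass (log2 0.50 ± 0.147, SE; adjusted p = 0.0636, edgeR). The region at 90126556 to 90127506 on chromosome 5 had the same order of groups, with 6.40 and 6.45 CPM with LPS, 10.3 and 14.6 with GCM, and 8.24 and 10.1 in untreated cultures. Its GCM libraries were far apart and its GCM over untreated value of 0.51 on the log2 scale did not pass either (adjusted p = 0.0890, edgeR).

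Other strong sites were level between GCM and untreated cultures. At 44273501 to 44274382 on chromosome 19 the values were 6.40 and 6.36 CPM with LPS, 11.3 and 10.7 with GCM, and 11.5 and 11.6 in untreated cultures. At 101817475 to 101818021 on chromosome 13 they were 4.98 and 4.49 CPM with LPS, 10.7 and 10.7 with GCM, and 11.3 and 12.2 in untreated cultures. The second of these sites had the larger LPS change, with a log2 of -1.31 ± 0.167 against -0.85 at the first, and GCM over untreated there was -0.12 (adjusted p = 0.756, edgeR).

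GCM stood between LPS and untreated cultures at 96934292 to 96935153 on chromosome 9, with 6.20 and 5.71 CPM with LPS, 8.36 and 8.36 with GCM, and 11.3 and 11.4 in untreated cultures. The groups did not overlap, and GCM over untreated was -0.44 on the log2 scale without passing (adjusted p = 0.129, edgeR). At 43278911 to 43279686 on chromosome 14 the levels were 5.89 and 7.02 CPM with LPS, 10.9 and 9.09 with GCM, and 8.95 and 8.13 in untreated cultures. There the LPS libraries were the lowest by a small margin (log2 -0.40), and the site was not called. The remaining 4 of the 10, at 51466726 on chromosome 12, 38376433 on chromosome 17, 102135454 on chromosome 1 and 54928526 on chromosome 13, had log2 LPS changes from -1.04 to -0.68.

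A second set of 10 was ranked by the p of LPS over untreated among regions whose LPS libraries both lay below all others, so its LPS values are extremes by choice. It shared 2 regions with the first set, those at 101817475 and 54928526 on chromosome 13. Levels with LPS were 2.06-fold to 3.13-fold lower than in untreated cultures. All 10 were called higher with GCM than with LPS, and GCM over untreated ran from -0.42 to 0.28 on the log2 scale, with adjusted p from 0.203 to 0.985 (edgeR).

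The region at 51694018 to 51694403 on chromosome 8 had 3.45 and 2.45 CPM with LPS, 6.64 and 6.72 with GCM, and 8.86 and 8.83 in untreated cultures. Its groups did not overlap and GCM lay between the others, with a log2 LPS change of -1.61 ± 0.201 and a GCM over untreated of -0.40 (adjusted p = 0.234, edgeR). The region at 24494685 to 24495013 on chromosome 13 had 1.73 and 1.63 CPM with LPS, 5.28 and 6.47 with GCM, and 5.19 and 4.48 in untreated cultures. The LPS libraries stood apart from the other 4, and GCM exceeded LPS by 1.83 on the log2 scale. Its nearest LPS hotspots were 485915 bp away in replicate 1 and 2375285 bp away in replicate 2, the farthest gap of any LPS-missing region.

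At 31258154 to 31258481 on chromosome 15 the levels were 1.52 and 1.63 CPM with LPS, 4.42 and 4.92 with GCM, and 4.48 and 5.75 in untreated cultures. Its log2 LPS change of -1.64 ± 0.260 was the most negative of all 1011, and its nearest LPS hotspots were 138679 and 138696 bp away. At 262754438 to 262754663 on chromosome 1 the levels were 1.52 and 1.47 CPM with LPS, 4.55 and 4.18 with GCM, and 4.39 and 4.34 in untreated cultures. GCM and untreated libraries overlapped there (log2 -0.01), and both LPS libraries were far below. A different neighbourhood was seen at 132373797 to 132374213 on chromosome 5, where LPS hotspots began 8 and 15 bp beyond the region's edge and the log2 LPS change was still -1.22.

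**Figure D2:**
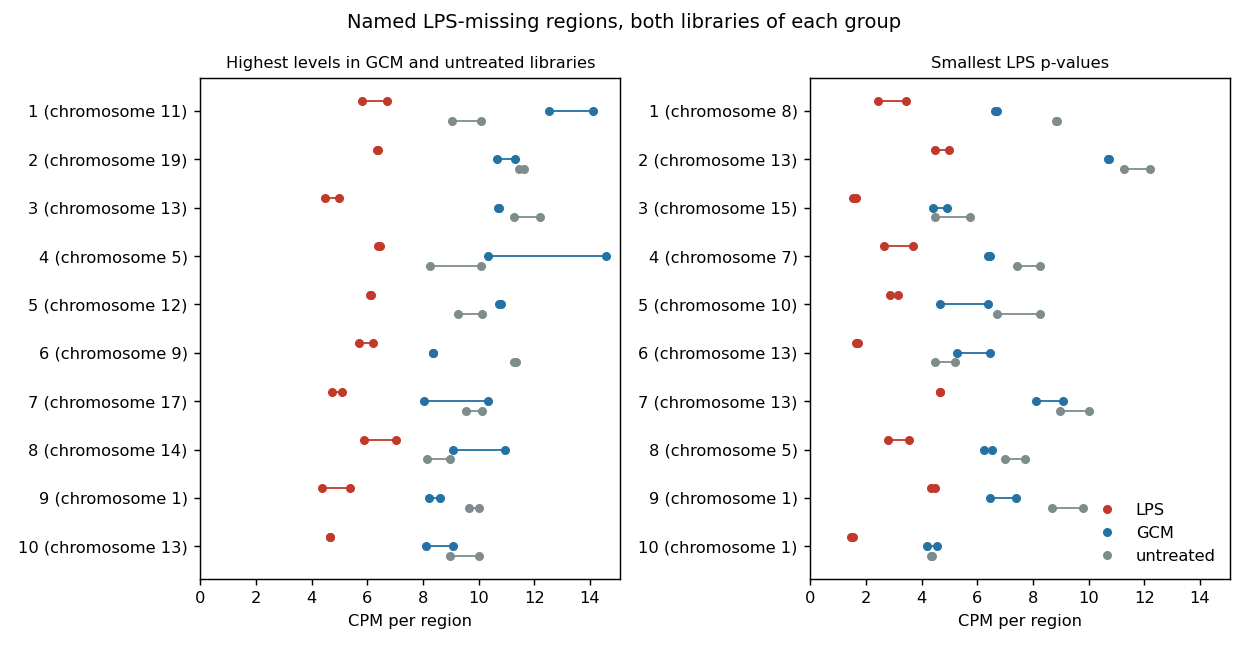
CPM of the 10 LPS-missing regions with the highest levels (left) and the 10 with the smallest p for LPS over untreated (right), a row per region with its rank and chromosome. Each point is a library and a line joins both libraries of a group; in all rows both LPS points lie left of the other 4, between 1.47 and 7.02 CPM.

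The edge of the rule was a matter of single bases. Just inside, the region at 229175087 to 229175243 on chromosome 1 overlapped a required hotspot by 4 bp, and its LPS libraries, with 1.32 and 1.71 CPM, lay between the untreated ones, with 2.33 and 1.12 CPM. With an overlap of 5 bp, the region at 3118495 to 3118810 on chromosome 10 had 2.54 and 3.02 CPM with LPS, 3.81 and 3.93 with GCM, and 3.22 and 4.62 in untreated cultures, so its LPS libraries were the lowest by a small margin. The third, at 56158442 on chromosome 4, rested on an overlap of 13 bp. Just outside, the region at 168649080 to 168649425 on chromosome 2 overlapped LPS hotspots by 1 bp, and had 2.34 and 2.20 CPM with LPS, 2.21 and 3.52 with GCM, and 4.03 and 4.91 in untreated cultures. The region at 116220995 on chromosome X was left out for 1 bp and that at 278720257 on chromosome 2 for 2 bp.

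The LPS-missing region with the highest LPS level relative to untreated, at 70806978 to 70807152 on chromosome 11, had 1.83 and 2.12 CPM with LPS, 3.44 and 2.21 with GCM, and 1.88 and 1.68 in untreated cultures. Its LPS level was not below its untreated level (log2 0.14), although no hotspot was called with LPS.

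Gaps to LPS hotspots are given here without a share for other regions to set beside them. To the nearest counted region, the median gap of the LPS-missing regions was 2308 bp. It was 1746.5 bp for the other regions with hotspots in the 4 untreated and GCM libraries. The median gap from an LPS-missing region to the nearest LPS hotspot was 1494 bp, with the middle 50% between 432 and 4185 bp. An LPS hotspot lay within 500 bp of 285 regions (28.1%), within 1000 bp of 424 (41.9%), within 5 kb of 793 (78.3%) and within 10 kb of 902 (89.0%). The median log2 LPS change was -0.61 in the 284 tested regions with an LPS hotspot within 500 bp, -0.62 in the 508 from 500 bp to 5 kb and -0.74 in the 219 beyond 5 kb. The shares called lower were 30.6%, 36.0% and 48.9% in that order. Both the gaps and the LPS changes come from the LPS reads that the rule used, so nothing is read from this order.

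LPS-missing regions were scattered over all 21 chromosomes in the table, from 13 on chromosome X to 102 on chromosome 1. As a share of the regions with hotspots in the 4 untreated and GCM libraries they made up from 1.06% on chromosome 10 to 1.78% on chromosome 6. Another LPS-missing region lay within 10 kb of 34 of them (3.36%), against 2.07% of the other regions with those 4 hotspots, and within 100 kb of 148 (14.6%), against 15.3%. These shares are descriptions and were not tested. No window of 100 kb held more than 3, and 2 windows held that number. In the first of them, on chromosome 13, the regions at 103648511, 103715128 and 103717126 had log2 LPS changes of -0.48, -0.61 and -0.80.

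Regions next to the LPS-missing ones were measured apart from the rule. The nearest counted region on each side within 10 kb, neither LPS-missing nor on a shared hotspot, gave 1257 flanking regions, of which 1236 were tested. Their median log2 change with LPS was -0.02. Of the flanking regions 43 were lower with LPS (3.48%), against 3.14% of all regions, and 81 were higher (6.55%), against 6.71% (edgeR, adjusted p under 0.05). The higher share lay close to that of all regions. The 3963 lower calls over all regions include 377 in the LPS-missing regions, which the flanks leave out. Of the regions more than 500 kb from any LPS-missing region, 2.85% were lower and 6.71% higher. The difference of the flanks from these was not tested. For GCM over LPS 51 were higher and 50 lower, or 4.13% and 4.05%, against 3.75% and 4.84% of all regions. For GCM over untreated 17 were higher and 2 lower, or 1.38% and 0.162%, against 1.34% and 0.231% of all regions.

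The share of neighbouring regions lower with LPS was 4.67% of 557 regions within 2 kb of an LPS-missing region, where the median log2 change was -0.05. It was 2.80% of 715 regions from 2 to 5 kb, 3.00% of 1132 from 5 to 10 kb and 2.63% of 2050 from 10 to 20 kb. Beyond 500 kb it was 2.85% of 67184 regions. The nearest bin held 26 called regions, and its difference from the others was not tested.

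**Figure D3:**
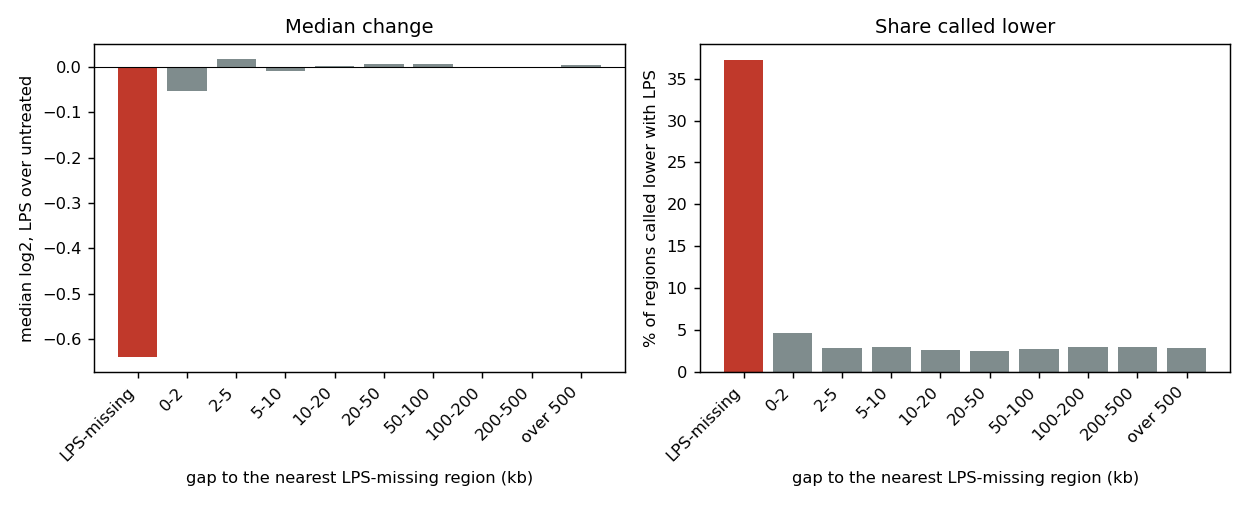
Median log2 change for LPS over untreated (left) and percent of regions called lower with LPS (right), in the LPS-missing regions and in other regions by their gap in kb to the nearest of them. Bars start at 0; outside the LPS-missing regions the medians lie between -0.05 and 0.02, against -0.64 in the LPS-missing regions, and the share called lower is at most 4.67%.

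Among the flanking regions that fell with LPS, the 3 with the smallest p were 1.70-fold to 1.93-fold lower. That at 13014428 to 13014895 on chromosome 17, 8909 bp from an LPS-missing region, had a log2 LPS change of -0.95 ± 0.156 (SE; n = 2 per group, adjusted p = 5.6e-05, edgeR). At 63409384 to 63409818 on chromosome 8 the levels were 6.20 and 5.79 CPM with LPS, 9.22 and 8.36 with GCM, and 11.2 and 11.1 in untreated cultures. The groups did not overlap, and the log2 LPS change was -0.90 (adjusted p = 0.000177, edgeR). At 67689114 to 67690073 on chromosome 19, 1136 bp from an LPS-missing region, it was -0.77 (adjusted p = 0.000269, edgeR).

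Some LPS-missing regions had a neighbour that gained accessibility. At 91018706 to 91019327 on chromosome 17, 457 bp from an LPS-missing region, the levels were 16.6 and 21.4 CPM with LPS, 9.71 and 9.67 with GCM, and 8.60 and 7.99 in untreated cultures. Both LPS libraries were far above the others, with a log2 LPS change of 1.20 ± 0.148 (SE; adjusted p = 6.55e-07, edgeR). The flanking regions at 52791602 to 52792066 on chromosome 6 and at 168660242 to 168660672 on chromosome 5 rose by 1.16 and 1.33 on the log2 scale (adjusted p = 2.37e-06 and 1.57e-05, edgeR).

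Flank counts rested on single libraries as well. Without untreated replicate 1, untreated replicate 2 and LPS replicate 2 there were 10, 9 and 18 lower and 37, 34 and 41 higher, and the shares lower of 0.810%, 0.726% and 1.46% stood beside 0.841%, 0.711% and 1.44% of all regions. DESeq2 called 2 flanks lower and 8 higher, and whole-library totals gave 5 lower.

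Regions that missed a hotspot in a single LPS library give a scale for what a missing call means. In the 2045 regions that lacked it in LPS replicate 1 alone, the median density was 8.83 CPM per kb in LPS replicate 1 and 11.5 in LPS replicate 2. In the 1315 that lacked it in LPS replicate 2 alone, it was 11.2 in LPS replicate 1 and 8.56 in LPS replicate 2. The median log2 LPS change of -0.64 in regions that lacked it in both was larger in size than the -0.39 and -0.45 of these sets. In each of these sets the LPS library without a call had a lower median density than any library with one. The sets were chosen by calls made on the same reads. The order of these densities and of the LPS changes thus follows in part from that choice and carries no test.

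**Figure D4:**
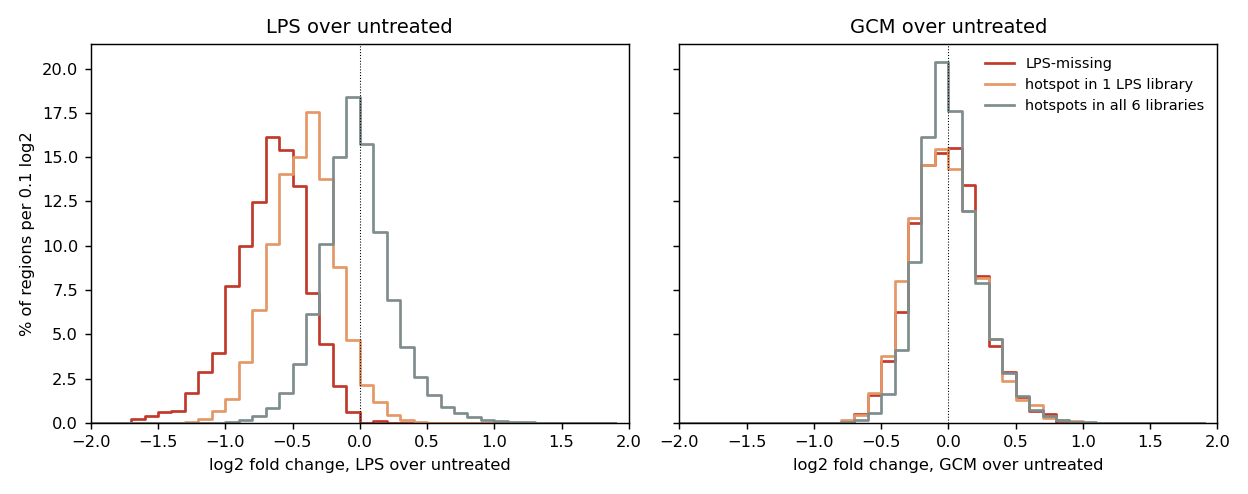
Percent of regions per 0.1 of log2 fold change for LPS over untreated (left) and GCM over untreated (right), in LPS-missing regions, regions with a hotspot in 1 LPS library and regions with hotspots in all 6 libraries. For LPS the curves centre on -0.64 in the first set and -0.03 in the last, with the middle set between them, and for GCM all curves centre near 0.

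The mirror case, hotspots present in all untreated and LPS libraries and missing in both GCM libraries, held 832 regions, of which 831 were tested. Their median density was 8.06 and 9.04 CPM per kb with GCM, 11.5 and 11.4 with LPS, and 11.5 and 12.9 in untreated cultures. Where the LPS-missing regions had a median log2 change of -0.64 for LPS over untreated and 377 regions called lower (37.3%, against 3.14% of all regions), this set had a median of -0.47 for GCM over untreated and 24 called lower (2.89%, against 0.231% of all regions). Both shares were thus above those of all regions in their own contrast. Each set was chosen by its own contrast, and the difference between them was not tested.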

How the data were processed

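The 6 DNase I sequencing libraries were grouped by their labels into 3 groups of 2 cultures. The submitters' processing notes list DiffBind, edgeR, Picard 1.95, SAMtools, Bowtie 1.1.2, cutadapt 1.8.3 and build rn5, without an order or settings. The authors deposited raw counts of tags per region for all libraries. The comparison tables deposited by the authors give CPM per library, a likelihood ratio score, p-values raw and adjusted, and log2 fold changes, per the file headers. The authors' CPM gave whole counts within 0.001 in 100% of values once multiplied by 1 total per library, and these totals are the reads of the whole libraries. The deposited hotspot lists give intervals and the authors' score, whose definition is not given in the sources used here, at a false discovery rate of 0.01 per the lists' names. A further 16 columns of CPM per base were not used.

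Hotspots were overlapped with counted regions by at least 1 bp in Python (3.11.15; scipy 1.17.1, numpy 2.4.6, pandas 2.3.3). Counts were fitted in edgeR 4.0.16 under R 4.3.3, by the quasi-likelihood test with TMM scaling, all 6 libraries in 1 fit, a minimum count of 10 in the default filter, Benjamini-Hochberg adjustment over 126284 regions and a threshold of 0.05. Tests were two-sided, and the common biological coefficient of variation was 5.63%. Every SE of an edgeR log2 change is the size of that change divided by the square root of the quasi-likelihood F statistic. The fitting was tested on simulated data. With 2 cultures a group, a p-value rests on a spread estimated from all 6 libraries together and shared in part across regions. It covers these few cultures only. Untreated libraries differed over regions by about counting error (chi-square per degree of freedom 0.976, against 1.24 for LPS and 1.30 for GCM) but not in chromosome sums, and were counted as 2 samples. Over the LPS-missing regions alone the values were 0.619 for untreated, 0.646 for LPS and 0.653 for GCM, below counting error. The rule asked both libraries of a group for the same hotspot call, which leaves out regions whose replicates disagreed. Low values there are thus partly fixed by the choice of regions.

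The regions, lists and named sets were chosen with earlier results of these data known. Named were the 10 highest in mean CPM over GCM and untreated libraries, the 10 with the smallest LPS p among those with both LPS libraries below all others, those passing for GCM over untreated (up to 5, or else the 3 smallest p in a direction), 3 at each side of the rule's edge, the densest 100 kb window, the highest relative LPS level, and 3 flanks in each direction. Marker, gene and motif lists were not used, because no genome or annotation of build rn5 was used here, and no sequence is printed for the same reason. Alternatives were another scaling, filter, test (DESeq2 1.42.0 or the likelihood ratio test), overlap or flank distance, a replicate block, whole-library totals, and leaving out each library. 1 alternative, the untreated libraries as 1 sample, was added after seeing the data.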

Additional observations from a re-analysis of the deposited data

Results flagged for a closer look

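At 6 flanking regions the LPS and GCM effects differed, by the direct test of GCM over LPS (edgeR, n = 2 per group). The flank at 13014428 on chromosome 17 was lower with LPS and higher with GCM than with LPS by 0.78 on the log2 scale (adjusted p = 0.000798). The flank at 63409384 on chromosome 8 was likewise lower with LPS, and GCM exceeded LPS by 0.54 (adjusted p = 0.0309). At 67689114 on chromosome 19 GCM exceeded LPS by 0.58 (adjusted p = 0.00616). Where the flank was higher with LPS, GCM over LPS was -0.98 at 91018706 on chromosome 17 (adjusted p = 6.54e-06), -0.86 at 52791602 on chromosome 6 (adjusted p = 7.74e-05) and -1.58 at 168660242 on chromosome 5 (adjusted p = 1.11e-06). These flanks were picked for their LPS p, which favours a difference between GCM and LPS. None of the 6 passed for GCM over untreated (adjusted p from 0.239 to 0.717, edgeR).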

How the results depend on the processing

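No called result changed direction under any alternative run, while the median of GCM over untreated, which has no test and is near 0 at -0.03, was 0.01 without GCM replicate 1 and 0.04 without untreated replicate 2. Under the rule's alternatives the regions numbered 904 (overlap of at least 50% of the width), 728 (no LPS hotspot within 500 bp) and 708 (without the lowest 10% of scores), against 1013. DESeq2 called 15 lower with LPS, 20 higher with GCM than with LPS, 0 higher with GCM than untreated, and 2 flanks lower and 8 higher with LPS. Whole-library totals gave 145, 156, 0 and 5 for the first 4 of these, and a median GCM over LPS of 0.52 on the log2 scale, beside a shift of all regions by -0.06. For GCM over untreated, 8 were higher by the likelihood ratio test, 7 with the 4 libraries compared alone, 1 with the wider overlap and 0 with the untreated libraries as 1 sample, which also gave 21 flanks lower. With no LPS hotspot within 500 bp, 48 flanks were higher, and no share was worked out for that smaller set of regions. Leaving out each library in turn gave 130 to 406 lower with LPS, 87 to 342 higher with GCM than with LPS, 0 to 7 higher and 0 to 0 lower with GCM than untreated, and 9 to 47 flanks lower and 34 to 81 higher. The medians lay between -0.73 and -0.59 for LPS over untreated, -0.11 and 0.04 for GCM over untreated and 0.57 and 0.64 for GCM over LPS when each library was left out. Why the counts moved was not tested beyond the smaller number of samples.

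The replicate block gave 435 lower with LPS (43.0%, against 3.99% of all regions) and 383 higher with GCM than with LPS (37.9%, against 4.51%). It gave 7 higher with GCM than untreated (0.692%, against 2.04%) and 2 lower. The main fit did not pair samples by replicate number. Deviations of same-numbered libraries correlated by -0.00127 between LPS and GCM, 0.0477 between LPS and untreated and 0.105 between GCM and untreated over 126284 regions. Replicates differed over regions by little more than counting error (chi-square per degree of freedom 0.976 to 1.30). Such error could hold these correlations near 0 even in paired cultures, so they do not settle whether the samples were paired. Of 594 values of named regions under the alternatives, 572 kept their side of the threshold or moved by less than the replicate spread, 5 moved by more, 15 lost and 2 gained a call. Among the losses was the flank at 63409384 on chromosome 8 with DESeq2 (adjusted p = 0.0622) and that at 67689114 on chromosome 19 with whole-library totals in edgeR (adjusted p = 0.128). At these depths the median SE of 0.244 limits which changes could pass.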
